A study of Drosophila melanogaster with 16 samples.

Results

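H3K27ac and H3K4me1 were compared with each other in heads of young male flies (*Drosophila melanogaster*), taking the day 10 peak list of each mark: 26699 H3K27ac peaks and 43871 H3K4me1 peaks, 70570 of the 137860 peaks in the series. All flies were w1118, a white-eyed laboratory strain labelled wild type, and were kept on cornmeal food at 25 °C under a light and dark cycle. Each list came from heads at day 10 of adult life and pools 2 chromatin immunoprecipitation (ChIP) replicates of 50 mg of heads, and each mark had 2 input replicates of its own, which makes 8 samples in 4 groups. Because each mark has a single pooled list, replicate spread is not known and nothing could be tested over samples. The 95% intervals given for shares are exact (Clopper-Pearson) and cover counting error only, and the read depth behind the peaks is unknown.

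Acetylation of histone H3 at lysine 27 is placed by CBP and p300, whose fly homologue is nej, and is found on nucleosomes beside active promoters and enhancers. Monomethylation of lysine 4 is placed in flies mainly by trr with its partner Lpt, and is found at enhancers, poised or active, and over the first part of transcribed genes. Nucleosomes right at an active promoter tend to carry trimethylated lysine 4 in its place. A head holds neurons, photoreceptors, glia, fat body, muscle and blood cells, so marks at a shared position may come from the same cells or from different ones, which cannot be told apart here.

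The chromosomes X, Y and 4 and the arms of 2 and 3, 7 sequences in all, held 26694 H3K27ac and 43863 H3K4me1 peaks, with median widths of 280 and 296 bp. They covered 9.19 and 17.9 Mb, or 6.72% and 13.1% of the span of these sequences. Bases under both marks at once came to 5.26 Mb. The authors' fold over background had a median of 2.49 in the H3K27ac list and 2.53 in the H3K4me1 list, and it is used below only to rank peaks within a list.

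Of the H3K27ac peaks, 18214 overlapped an H3K4me1 peak by at least 1 base (68.2%, interval 67.7 to 68.8%) and 8480 did not. The converse share was lower: 17613 H3K4me1 peaks (40.2%, interval 39.7 to 40.6%) overlapped H3K27ac and 26250 did not. Joined wherever they overlapped, the peaks of both lists made 51512 sites, of which 16782 carried both marks, 8480 H3K27ac alone and 26250 H3K4me1 alone. Sites with both marks had a median width of 456 bp, which joining at least 2 peaks makes larger by construction, and 14843 of them were made of 1 peak of each mark. Peak by peak, the median width was 302 bp for H3K27ac with H3K4me1 and 228 bp without, and 349 and 266 bp for H3K4me1 with and without H3K27ac. The longer H3K4me1 list bears on these shares: with the same number of peaks in both lists they were 52.0% and 48.9%.

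H3K27ac peaks at gene ends met H3K4me1 less often than those elsewhere. Gene positions came from a reference table without strand, so a transcript's start and its end could not be told apart, and "gene end" here means within 500 bp of either end of a protein-coding gene. Of the H3K27ac summits (the position of greatest enrichment in a peak), 6747 lay at a gene end (25.3%), 17320 in a gene interior (64.9%) and 2627 outside genes (9.84%). H3K4me1 summits were less often at gene ends, 6154 of 43863 (14.0%), with 31143 in gene interiors and 6566 outside genes. Overlap with H3K4me1 was found for 52.4% of the gene-end H3K27ac peaks (interval 51.2 to 53.6%), 73.6% of the interior ones (73.0 to 74.3%) and 73.3% of those outside genes. By bases, 31.8% of the H3K27ac-covered sequence at gene ends was also under H3K4me1, against 65.3% in gene interiors and 67.4% outside genes.

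In gene interiors and outside genes, H3K4me1 was centred on the H3K27ac summit. An H3K4me1 peak covered 70.9% of the interior summits themselves, 52.2% of the positions 100 bp away, 30.5% at 200 bp and 26.9% at 300 bp, close to the local background of 23.8% between 4000 and 5000 bp. Outside genes the course was alike, from 71.5% at the summit to 24.5% at 300 bp, with a background of 18.2%. A low shoulder followed in both, up to 30.6% and 27.9% between 300 and 2000 bp.

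Gene-end summits had another arrangement, turned toward the gene. H3K4me1 covered 34.2% of these summits (interval 33.1 to 35.4%), a little above the background of 29.3%. With the upper 50% of each list by q the summit value was 20.0%, and no background was computed for that setting. In the full lists H3K4me1 dropped to 8.97% at 300 bp on the side away from the gene. On the side of the gene it was 33.2% at 200 bp and 53.3% at 500 bp, was highest at 655 bp (54.2%), and had come down to 36.9% at 2000 bp. On the outer side it stood at 40.6% at 1500 bp. H3K27ac itself covered 10.4% of positions 400 bp outside and 22.2% of those 400 bp inside.

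**Figure D1:**
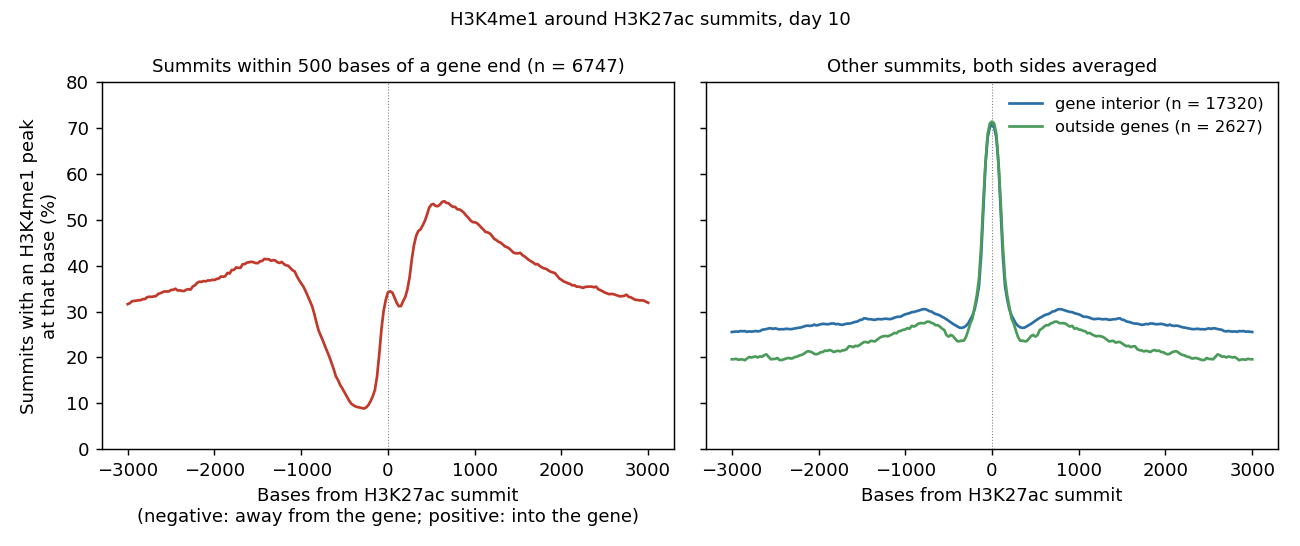
Share of H3K27ac summits (vertical axis, %) that had an H3K4me1 peak at each distance in bases (horizontal axis) at day 10; the left panel shows gene-end summits turned so that positive distances run into the gene, and the right panel the other summits with both sides averaged. H3K4me1 peaks on the summit in gene interiors (70.9%) and outside genes (71.5%), while at gene ends it is low 300 bp outside (8.97%) and high 500 bp inside (53.3%).

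Distances between summits gave the same contrast. The nearest H3K4me1 summit was a median of 84 bp from an interior H3K27ac summit, 74 bp from one outside genes and 538 bp from a gene-end one. Within 10 bp of each other lay 4428 pairs (16.6% of all H3K27ac summits), 3422 of them in gene interiors. Within 50 bp, less than the length of a nucleosome, lay 9728 (36.4%, interval 35.9 to 37.0%): 43.2% of interior summits, 44.5% of those outside genes and 15.9% of those at gene ends. Gene-end summits instead had their nearest H3K4me1 summit 400 to 1000 bp away in 45.9% of cases, against 16.4% in gene interiors. Both lists come from nuclease-cut chromatin and the same peak caller, and the part of shared fragment positions in these coincident summits was not tested. Of the 50 bp limit, chosen after the distances were seen, the neighbouring limits of 25 and 100 bp gave 7185 and 11700 pairs.

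**Figure D2:**
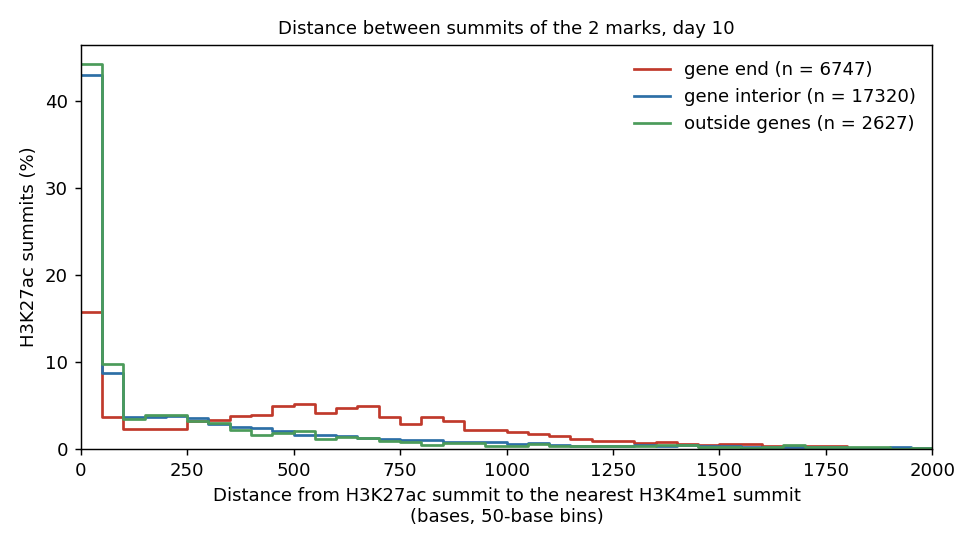
Distance from each H3K27ac summit to the nearest H3K4me1 summit (horizontal axis, 50-base bins up to 2000 bases) as a share of the summits in each place (vertical axis, %). Gene interiors and regions outside genes have 42.9% and 44.3% of their summits in the first bin, and gene ends 15.7% with a broad second rise between 400 and 1000 bases.

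3 kinds of H3K27ac peak can be told apart on these distances. The 9728 coincident peaks (H3K4me1 summit within 50 bp) were 274 bp wide in the median and lay mostly in gene interiors (77.0%). The 8486 peaks that overlapped H3K4me1 with summits farther apart were wider, 341 bp. Those with no overlap, 8480, were 228 bp wide and lay at gene ends in 37.9% of cases, against 29.0% of the overlapping ones with summits apart. Many of the 8480 peaks with no overlap had H3K4me1 close by: 2362 within 200 bp of an edge, 4751 within 500 bp and 6449 within 1000 bp. Only 2031 H3K27ac peaks (7.61%) had no H3K4me1 peak within 1000 bp, and 1418 of these lay in gene interiors, 357 at gene ends and 256 outside genes. They made up 8.19% of all interior H3K27ac peaks, 5.29% of the gene-end ones and 9.74% of those outside genes.

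Sharing was lower in stronger H3K27ac peaks at gene ends, and higher outside genes and, less firmly, in gene interiors. Over the whole list the share of H3K27ac peaks with H3K4me1 was 72.6% in the lowest of 4 equal groups by fold (1.42 to 2.11) and 64.3% in the highest (3.00 to 7.09). At gene ends it was 74.0% in the lowest group and 45.3% in the highest (interval 43.6 to 47.1%). In gene interiors it was 72.5% and 80.2% (78.7 to 81.5%), and outside genes 72.2% and 84.5% (80.6 to 87.8%). The difference between highest and lowest group was -28.7 points at gene ends, and -18.6, -15.4 and -13.4 points with a stricter q (-log10 q of at least 5), equal numbers of peaks and the upper 50% of each list. In interiors it was 7.65 points, and 8.17, 23.6 and 1.84 points under these alternatives. The last kept its sign. Its range from the bounds of both groups' intervals, -2.67 to 6.31 points, includes 0, so the direction in interiors was not firm there. Outside genes it was 12.3 points, and 20.8, 29.8 and 18.5 points. Gene-end peaks made up 3083 of the 6674 peaks in the highest group and 759 of the lowest. Gene-end peaks also had the highest median fold, 2.91, against 2.39 in interiors and 2.32 outside genes. For H3K4me1 peaks the share with H3K27ac was higher in stronger peaks in all 3 places: 23.8% in the lowest and 48.0% in the highest group at gene ends, 25.0% and 62.4% in interiors, and 14.0% and 55.7% outside genes.

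**Figure D3:**
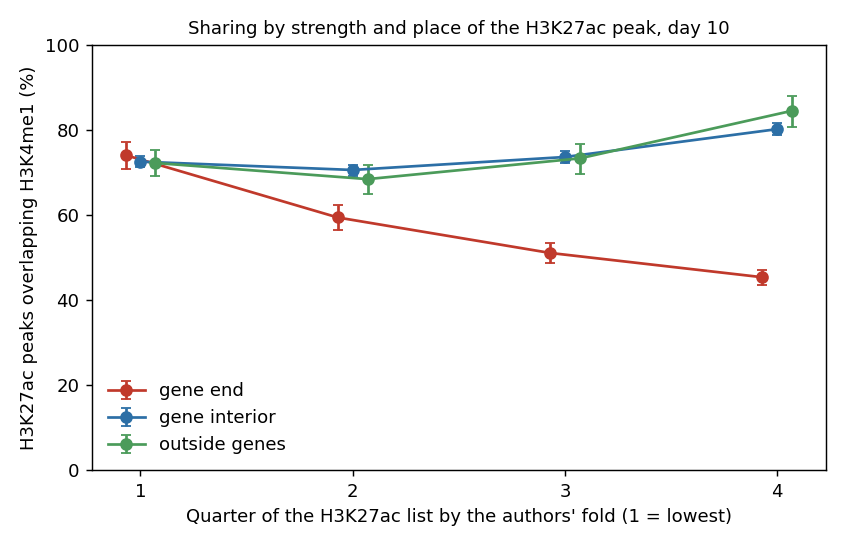
Share of H3K27ac peaks that overlapped H3K4me1 (vertical axis, %; bars are exact 95% binomial intervals) by fold group of the H3K27ac list (horizontal axis, 1 is the lowest of 4) and by place. The share is 74.0% in the lowest and 45.3% in the highest group at gene ends, while it is 72.5% and 80.2% in gene interiors.

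Width went with sharing as well. H3K27ac peaks under 200 bp overlapped H3K4me1 in 54.9% of cases, those of 500 to 1000 bp in 86.5% and the 551 of 1000 bp or more in 96.7%. A wider peak has more bases to overlap with. The summit values above do not depend on H3K27ac width in this way, but they do depend on H3K4me1 width. They were not split by H3K27ac width. The median fold of H3K27ac peaks was 2.47 with H3K4me1 and 2.55 without, a small difference whose sign turned with equal numbers of peaks. H3K4me1 peaks with H3K27ac had a median fold of 2.76, against 2.38 without.

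Single loci show these arrangements. The strongest H3K27ac peak with H3K4me1 lay in the interior of puc, the phosphatase gene that is target and brake of JNK signalling (chr3R:8112689-8114881, fold 6.87). The strongest H3K4me1 peak of the whole list lay at the same place (chr3R:8113309-8114752, fold 5.75), with its summit 1 bp from that of H3K27ac. In ush, a zinc finger cofactor of GATA factors, the interior peak chr2L:481130-482011 (fold 6.41) had its H3K4me1 summit 13 bp away, and a peak 3110 bp from psq (chr2R:10553036-10554777, fold 6.27) had it 11 bp away. Inos, which makes inositol phosphate, had a coincident pair at a gene end (chr2R:7458380-7458820, fold 6.48, 11 bp). At CG17896, by contrast, the gene-end H3K27ac peak chrX:491102-493532 (fold 6.38) overlapped H3K4me1 with summits 1963 bp apart.

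The highest H3K27ac fold of all belonged to a peak without H3K4me1, in the interior of Sin3A, the scaffold of a histone deacetylase complex (chr2R:12589654-12590591, fold 7.09); its nearest H3K4me1 summit was 2567 bp away. Next came a peak 2702 bp from SIFaR, a neuropeptide receptor gene (chr3R:21296701-21297405, fold 6.81), and one 4684 bp from CG1888 (chr2R:9552820-9553383, fold 6.57). Gene-end peaks at smash (chr3R:4659542-4660518, fold 5.99) and ATPsynC, a membrane subunit of ATP synthase (chr3R:31218610-31219530, fold 5.88), had H3K4me1 summits 1041 and 867 bp away. All 5 were picked for having no H3K4me1 under the peak. Over all H3K27ac summits the median distance to the nearest H3K4me1 summit was 192 bp, and 98.8% had one within 5000 bp.

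Among H3K4me1 peaks with H3K27ac, those next in fold to puc were in the interiors of Adss, an enzyme gene of AMP synthesis (chr3R:20827904-20828141, fold 5.58), and brat, a translational repressor (chr2L:19163006-19163831, fold 5.55), each with summits 2 bp apart. The gene end of l(3)neo38 (chr3R:11778836-11779361, fold 5.55) and the interior of the ecdysone-induced receptor gene Eip75B (chr3L:18033323-18034153, fold 5.52) followed, at 102 and 31 bp. The strongest H3K4me1 peaks without H3K27ac were a pair 3744 and 4927 bp from CG13323 (chr2R:13040384-13040950 and chr2R:13039493-13039767, folds 5.58 and 5.35) and a peak in Kap-alpha3, an importin gene (chr3R:9575203-9577105, fold 5.28). Gene-end peaks at 2 homeobox genes came after them: Awh (chr3L:3845968-3846368, fold 5.22), with the nearest H3K27ac summit 15634 bp away, and tin, which specifies the heart (chr3R:21378802-21379451, fold 5.12), with it 2108 bp away.

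Of 13946 protein-coding genes, 8394 (60.2%) carried both marks in their region, the gene with 1000 bp on both sides. Only 290 (2.08%) had H3K27ac alone, 1811 (13.0%) had H3K4me1 alone and 3451 (24.7%) had no peak. With equal numbers of peaks in both lists, 667 genes had H3K27ac alone and 1154 H3K4me1 alone. A gene with H3K27ac thus nearly always had H3K4me1 somewhere in its region, while the converse was less often so. In the 500 bp windows at the gene ends alone, 6285 genes (45.1%) had both marks, 1225 (8.78%) H3K27ac only, 1805 (12.9%) H3K4me1 only and 4631 (33.2%) no peak; of the 1225, 1072 had H3K4me1 elsewhere in the region. Class went with length: both marks were found for 37.0% of the shortest of 4 equal groups of genes by region length (up to 3.18 kb) and 77.3% of the longest, and no peak for 45.9% and 7.89%. Regions of neighbouring genes overlap, so a peak can count for more than 1 gene.

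Carrying both marks did not always mean carrying them on the same bases. In 6798 of the 8394 genes (81.0%) at least 1 base lay under both marks (48.7% of all genes), and in 1596 the marks lay side by side with no shared base. The median gene with both marks had 40.9% of its H3K27ac bases under H3K4me1. Along the 2592 genes of at least 3 kb with an H3K27ac summit at exactly 1 end, H3K27ac covered 48.5% and 49.1% of the first pair of 5% bins of the body. H3K4me1 covered 14.1% and 24.2% there. In the bin from 20 to 25% of the length the order was reversed, with 16.9% for H3K27ac and 44.6% for H3K4me1, and in the last bin they stood at 0.73% and 6.32%. H3K27ac chose and oriented these genes, so only the course of H3K4me1 is a measurement here.

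**Figure D4:**
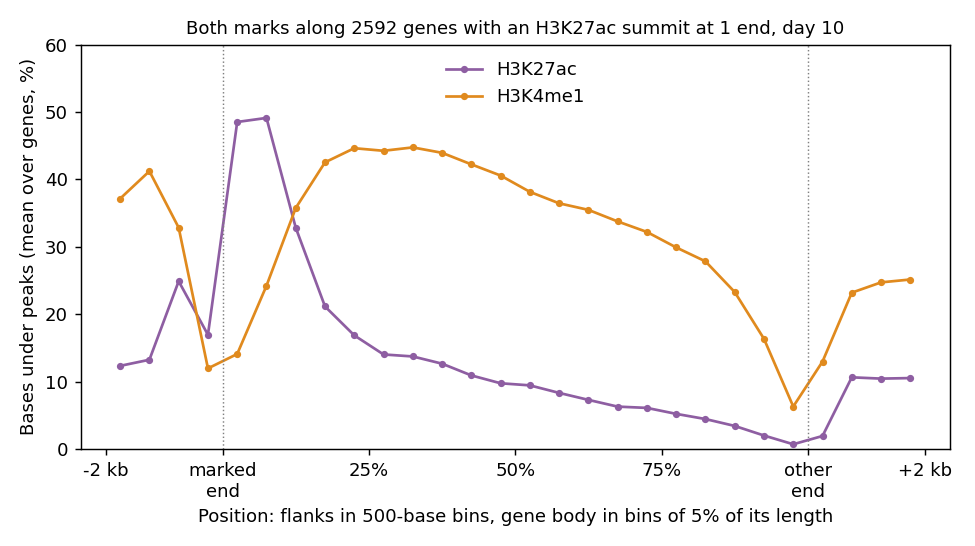
Mean share of bases under each mark (vertical axis, %) along 2592 genes with an H3K27ac summit within 500 bases of exactly 1 end, which is drawn on the left; flanks are in 500-base bins and the body in bins of 5% of its length. H3K4me1 is at 14.1% in the first body bin, 44.6% between 20 and 25% and 6.32% in the last, and H3K27ac is the higher of the 2 marks only near the marked end.

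The genes with the most sequence under both marks at once were long. CG46467 had 29.4 kb under both (42.6 kb under H3K27ac and 40.2 kb under H3K4me1 in a region of 116 kb). In tara, a transcriptional coregulator gene with a role in sleep, 21.2 kb of a region of only 36.7 kb was under both, or 57.7%. The corepressor gene sbb had 20.5 kb, the dioxygenase gene Tet 20.4 kb, the ecdysone receptor gene EcR 20.4 kb, the RNA-binding mub 20.3 kb, the ecdysone-induced ETS factor gene Eip74EF 19.5 kb and the Notch coactivator gene mam 19.0 kb. Of the H3K27ac bases in these 8 genes, 54.2% (mub) to 80.5% (mam) were under H3K4me1, a description only, since the genes were chosen for their shared bases.

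H3K27ac without any H3K4me1 was found in short stretches. The largest were 1.28 kb in 5 peaks at Tsf1, the transferrin gene of iron transport, 1.20 kb at lawc, 1.14 kb at the nucleic acid-binding Pur-alpha on chromosome 4 and 1.02 kb at CG17486. CG15916 had 0.907 kb, the respiratory complex III gene UQCR-11 0.851 kb, CG12362 0.846 kb and RpS14b 0.819 kb. RpS14b has a near-identical neighbouring copy, RpS14a, and reads could be split between them.

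H3K4me1 without any H3K27ac extended further. It reached 10.2 kb in 21 peaks at lobo, 8.59 kb at L, 7.57 kb in 22 peaks at pnt, the ETS factor gene of the EGFR pathway, and 7.28 kb at the ubiquitin ligase gene Ufd4. Ets65A, another ETS factor gene, had 6.82 kb, MSAmiP 6.29 kb, the ubiquitin ligase gene hyd 6.28 kb and the zinc finger gene sens-2 5.96 kb. The strongest peak in each of these genes had a fold of 3.17 to 4.46. List size bears on the comparison with H3K27ac alone. The H3K4me1 list covered 17.9 Mb against 9.19 Mb, and 1811 genes had H3K4me1 alone against 290 with H3K27ac alone.

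Gene groups are set beside the shares over all 13946 genes given above (60.2% both marks, 2.08% H3K27ac only, 13.0% H3K4me1 only, 24.7% none), as a description with no test. The median gene had 6.42% of its region under H3K27ac and 16.0% under H3K4me1.

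Most housekeeping genes carried both marks, with a small part of the H3K27ac under H3K4me1 in ribosomal protein and oxidative phosphorylation genes. Both marks were found for 85 of 93 cytosolic ribosomal protein genes (91.4%) and 74 of 91 genes of oxidative phosphorylation (81.3%). Proteasome genes had both in 33 of 48 cases. No peak was found for 3, 12 and 12 members. The proteasome shares, 68.8% with both and 25.0% with no peak, were the nearest to those over all genes (60.2% and 24.7%). At least 1 base lay under both in 60, 44 and 17 of the genes with both marks, and the marks lay side by side in 25, 30 and 16. Counted in the gene body alone, only 44 oxidative phosphorylation genes had both. In those with both marks the median share of H3K27ac bases under H3K4me1 was 20.4%, 13.6% and 19.5%, against 40.9% over all genes with both marks, and was 6.72%, 0% and 0% in the upper 50% of each list. Their regions were short (medians 3.10 to 3.38 kb), but genes of both marks in the 2 shortest length groups of all genes had medians of 36.0% and 32.5%. UQCR-C1, a complex III subunit, had 19.0% of its region under H3K27ac and 72.6% under H3K4me1 with 3.78% under both, and RpL18 had 17.5%, 59.3% and 2.48%. Other members overlapped: RpS10a had 65.8% and 48.8% with 48.0% under both, and Prosalpha2 34.9% and 78.0% with 24.8%. ATPsynG had the highest H3K27ac share of the oxidative phosphorylation genes (48.3%). Members with H3K4me1 only were few, led by RpL27 (31.1%), Prosalpha1 (13.2%) and ND-51L2 (14.7%).

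Most neuronal genes carried both marks too. Of 32 genes of synapse and neuronal excitability, 28 carried both, 3 H3K4me1 only and 1 H3K27ac only, with a median of 54.2% of H3K27ac bases under H3K4me1. That median was 38.3% with equal numbers of peaks and 26.5% in the upper 50% of each list. A shared base was found in 23 of the 28, near the 81.0% over all genes with both marks. The complexin gene cpx, a clamp of vesicle fusion, had 43.4% of its region under H3K27ac and 33.7% under H3K4me1, with 32.0% under both. Ddc, which makes dopamine and serotonin, had 9.34% and 55.5%. The members without H3K27ac were the vesicular transporter genes VGlut (7.95% H3K4me1) and Vmat (1.49%) and ple, the tyrosine hydroxylase gene (7.66%). Only nAChRalpha7 had H3K27ac alone, at 0.663% of its region. Of 58 genes of neuronal surface recognition 46 had both marks and 11 H3K4me1 only, with dpr12 at 36.5% and 22.5%, Dscam4 at 27.7% and 32.6% and DIP-eta at 0% and 14.4%. The median share of H3K27ac under H3K4me1 was 51.5% there, 29.7% at the stricter q, 23.6% with equal numbers and 17.0% in the upper 50%. Regions in these groups were long (medians 24.9 and 38.2 kb), and the longest length group of all genes had a median overlap of 55.0%, near theirs. Both marks were carried by 77.3% of that length group, beside 87.5% of the synapse and excitability genes and 79.3% of the surface recognition genes.

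Photoreceptor genes fell into all 4 classes. Of 28 phototransduction genes 16 had both marks, 8 H3K4me1 only, 1 H3K27ac only and 3 none. The share with both marks, 57.1%, was near that over all genes. H3K4me1 alone was found for 5, 4, 4 and 3 genes, and no peak for 6, 7, 9 and 10, with the stricter q, equal numbers of peaks, the upper 50% of each list and the gene body alone. The H3K4me1-only members included ninaE, the main rhodopsin gene of the eye, with 8.81% of its region under H3K4me1 and no H3K27ac peak, its chaperone ninaA (16.4%), the arrestin gene Arr2 (16.4%) and laza (16.9%). By contrast Rh5, the blue-sensitive rhodopsin gene, had 56.7% under H3K27ac and 64.2% under H3K4me1, and the channel gene trpl had H3K27ac alone (1.45%). Rh6 and Arr1 had no peak of either mark.

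Developmental regulators were mostly H3K4me1 without H3K27ac. Among 23 Hox and segmentation genes 16 had H3K4me1 only, 3 both (1 in the gene body alone) and 4 none. The H3K4me1-only members included 7 of the 8 Hox genes, from 2.92% of the region at Ubx to 12.8% at lab, and the forkhead factor genes slp1 (58.0%) and slp2 (42.9%). The 3 with both were hry (14.6% H3K27ac), hh (1.79%) and Abd-B (0.319%). Transcription factors of eye and brain had 11 of 19 with H3K4me1 only and 8 with both. The proneural gene ato (55.5%) and the photoreceptor factor gene gl (48.9%) had wide H3K4me1 and no H3K27ac, while onecut had 14.6% H3K27ac and 24.7% H3K4me1, and pros 0.755% and 32.6%.

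Genes of general control stood at the other end. Of 33 chromatin modifiers 32 had both marks and Utx, an H3K27 demethylase gene, H3K4me1 only (17.4%). trr had 70.2% of its region under H3K4me1 and 9.19% under H3K27ac with no shared base. Lpt had 51.3% and 15.7%, and nej 43.9% and 5.18%, with 25.8% and 25.7% of the H3K27ac bases shared. ph-d had the highest H3K27ac share of the group, 36.8%. Of 17 circadian clock genes 16 carried both, among them Fbxl4 (38.2% and 42.7%) and nocte (15.7% and 52.1%), and the neuropeptide gene Pdf, active in few neurons, had no peak. Median regions of the chromatin and clock genes were 7.22 and 11.1 kb. Both marks were found for 97.0% and 94.1% of them, beside 68.5% and 77.3% of all genes in the 2 longest length groups.

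Inducible genes were mixed. Of 22 heat shock and chaperone genes 16 had both marks, all 16 with shared bases and a median of 60.1% of H3K27ac under H3K4me1, and 4 had no peak (7 in the gene body alone). Hsp67Ba had 62.8% and 70.4%. Of 33 innate immunity genes 22 had both, with imd at 44.8% and 46.5% and the antimicrobial peptide gene Mtk at 36.4% and 68.2%. H3K4me1 alone was found at 4 (LysX 29.6%, PGRP-SD 27.3%, AttB 20.7% and AttA 18.7%), or at 7 with the stricter q, and 7 had none, among them the cecropin genes and both diptericin genes. The shares of the innate immunity genes were near those over all genes: 66.7% with both (60.2% over all) and 21.2% with none (24.7%). For heat shock and chaperone genes they were 72.7% and 18.2%. The Hsp70 genes are near-identical copies among which reads can be split, so the 17.4% H3K4me1 of Hsp70Ab and the absence of peaks at Hsp70Bb are uncertain.

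Groups of other cell types differed widely. Both marks were found for 10 of 14 glial, 11 of 19 fat body, 3 of 16 muscle, 4 of 10 hemocyte, 8 of 15 testis and germline and 31 of 180 chemosensory receptor genes. No peak was found for 2, 7, 8, 5, 5 and 116 of them, and H3K4me1 alone for 2, 1, 5, 0, 2 and 27. In the same order the shares with both marks were 71.4%, 57.9%, 18.8%, 40.0%, 53.3% and 17.2%. Those of fat body and of testis and germline genes were the nearest to the 60.2% over all genes. In the gene body alone only 8 chemosensory and 5 testis and germline genes had both, and with equal numbers of peaks 12 chemosensory genes and 1 muscle gene had H3K4me1 alone. In glia the H3K4me1-only pair were the identity factor genes repo (47.3%) and gcm (28.3%), while the glutamine synthetase gene Gs2 had 25.2% H3K27ac and 14.2% H3K4me1. In fat body Lsd-2, a lipid droplet gene, had 38.3% and 16.5%, and ACC, of fatty acid synthesis, 22.3% and 50.0%, whereas the larval serum protein genes Lsp1alpha, Lsp1beta and Lsp1gamma had no peak. Of the muscle genes Mef2, a transcription factor gene also active in neurons, had 20.3% and 34.4%, and Mhc, sls and Act88F had no peak of either mark. Among receptors Or67c had 44.4% and 13.5%, Or2a 5.66% and 56.1%, Ir60b H3K27ac alone (14.1%) and Or43b H3K4me1 alone (27.7%). Pxn led the hemocyte genes (23.8% and 27.1%), and of testis genes bol had 28.5% and 24.3%, twe 14.0% and 57.0%, and betaTub85D H3K4me1 alone (27.1%).

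**Figure D5:**
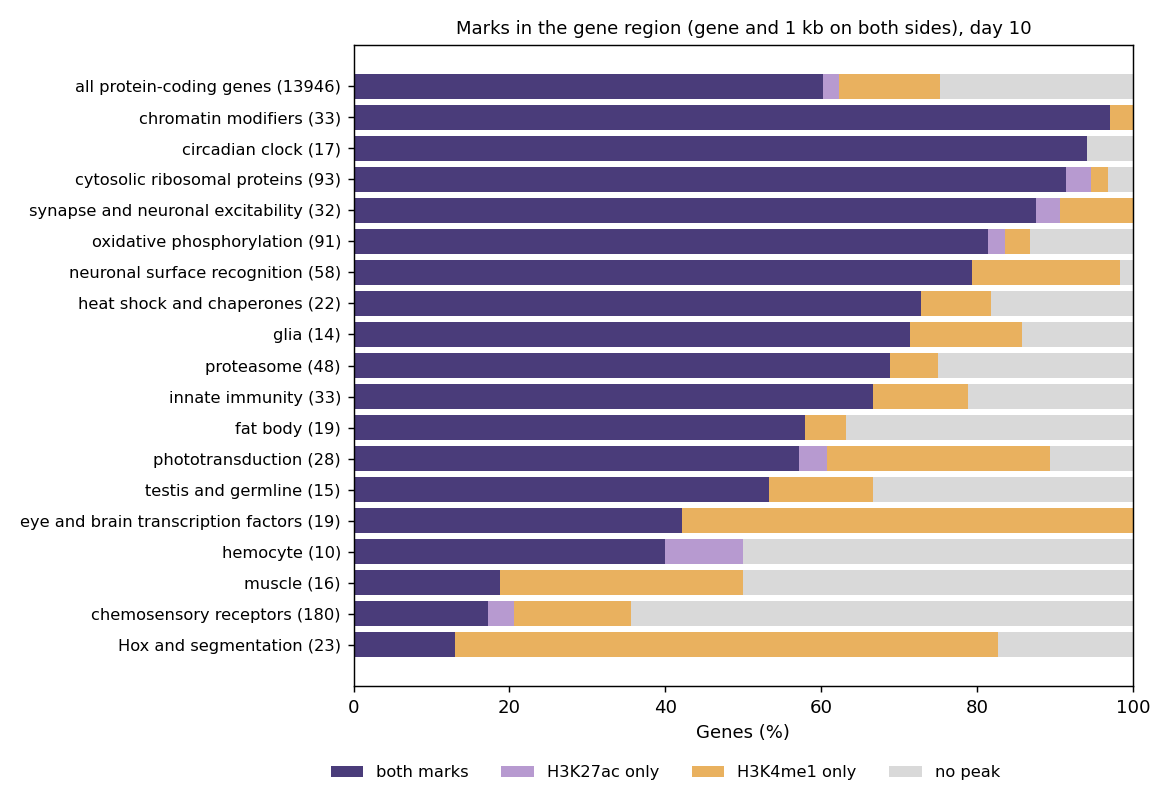
Share of genes (horizontal axis, %) with both marks, H3K27ac only, H3K4me1 only or no peak in the region (gene and 1 kb on both sides) for 18 gene lists and all protein-coding genes, with the number of genes in brackets. Both marks are found for 97.0% of chromatin modifiers and 13.0% of Hox and segmentation genes, of which 69.6% have H3K4me1 only.

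Among cell type markers, all 5 neuronal ones (elav, nSyb, Syt1, brp and para) carried both marks, with 3.79 to 24.0% of the region under H3K27ac. Photoreceptor markers did so for 2 of 5 (trp and norpA), glial markers for 4, fat body markers for 4, hemocyte markers for 2, testis markers for 1 and muscle markers for 0. Both marks were found for 60.2% of all genes and 77.3% of the longest length group, to which all 5 neuronal regions belonged. Heads hold photoreceptors and muscle too, so these counts cannot serve as a check of the tissue. H3K4me1 without H3K27ac was found at ninaE, ninaC, chp, repo, up and Mst87F.

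The chromosomes differed in sharing. On X 59.8% of H3K27ac peaks overlapped H3K4me1 (interval 58.4 to 61.2%), against 70.3% (69.6 to 70.9%) on the autosome arms together. The 133 H3K27ac peaks of chromosome 4 did so in 45.9% of cases (37.2 to 54.7%), and its 333 H3K4me1 peaks had H3K27ac in 18.0% (14.0 to 22.6%), against 39.7% on the autosome arms and 44.3% on X. Y had 2 H3K27ac peaks and no H3K4me1 peak. Peak numbers, which bear on these shares, differed too. X held 4837 H3K27ac and 6251 H3K4me1 peaks, and the autosome arms 21722 and 37279. The flies were male, with a single X. The part of peak numbers and of copy number in the differences between chromosomes was not tested.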

How the data were processed

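Members, lists and rules were chosen with earlier results of these data known. Per the labels' protocols, chromatin was cut with micrococcal nuclease, with short sonication, before ChIP. Peaks were called on both replicates pooled, per the names in the deposited lists. Tools named, without roles, per the submitters' processing notes, are MACS2 2.1.1, STAR 2.5.3a, deepTools, Trim Galore and FastQC, and the build is BDGP6; whether the inputs served as controls is not given in the sources used here. Per peak the authors deposited a fold enrichment over background (a ratio), a -log10 q-value (at least 1.30; the p-value was not used), and a summit offset. The score in the deposited lists is the authors' -log10 q scaled to a whole number and entered no result. Deeper libraries pass more peaks at a given q, and nuclease digestion favours nucleosome-sized fragments.

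The gene table, from RefSeq on Release 6 (the assembly BDGP6 names), gives no strand or sequence, so both gene ends replaced gene starts and the planned promoter motifs were not searched. Overlaps, coverage and distances were computed with Python 3.11.15, numpy 2.4.6 and pandas 2.3.3, intervals with scipy 1.17.1, and figures with matplotlib 3.10.9; all 10 simulated quantities were recovered. Gene-end summits were turned toward the nearest gene, and genes of at least 3 kb binned, by choices made after the reference was seen. All 751 members of the 18 lists were matched. Named genes were, by rule, the 8 with most bases under both marks, H3K27ac alone or H3K4me1 alone without overlapping regions, the 5 strongest peaks of each class, up to 4 members of each list (highest share of each mark, with and without the other), and trr, Lpt, Utx and nej; other list members named were chosen after their values were seen.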

Additional observations from a re-analysis of the deposited data

Results flagged for a closer look

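Peaks on sequences other than the 7 main ones were left out of the comparisons: 5 H3K27ac peaks (folds 2.03 to 2.95) and 8 H3K4me1 peaks (folds 1.52 to 2.86) at day 10. They were picked out as signal in data no comparison used, and 1 of the 5 overlapped H3K4me1.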

How the results depend on the processing

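No paired analysis was possible because each list pools both replicates, and for the same reason no replicate could be left out. Under the alternatives 32 of the main values moved by less than their counting interval (counts of genes by less than 1.5 times), 58 moved further and 1 turned its sign; the cause was not tested beyond what the alternatives change by construction. Leaving out chromosomes 4 and Y was run for the 6 summit values only, and moved none of these 6. Alternatives kept peaks with -log10 q of at least 5, equal numbers of peaks, or the upper 50% of each list, in that order below.

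H3K27ac peaks with H3K4me1 (68.2%) came to 61.3%, 52.0% and 53.1%, and H3K4me1 peaks with H3K27ac (40.2%) to 36.2%, 48.9% and 32.6%. Under other overlap rules the pair was 63.5% and 37.5% (50% of the shorter peak), 61.7% and 34.1% (summit in the other mark's peak) and 77.1% and 45.5% (within 200 bp). The median fold of H3K27ac peaks with minus without H3K4me1 (-0.084) was -0.053 at the stricter q, turned to 0.095 with equal numbers and was -0.140 under 50% overlap. For H3K4me1 (0.38) it was 0.33, 0.21 and 0.24, and 0.37 under 50% overlap. The width difference of H3K27ac (74 bp) was 97 bp in the upper 50% and 49 bp under 50% overlap, and that of H3K4me1 (83 bp) was 67, 61 and 46 bp, and 68 bp under 50% overlap.

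H3K27ac summits in an H3K4me1 peak came to 54.3%, 47.0% and 45.2%, and 55.4% for summits isolated by 1000 bp. At gene ends they came to 27.1%, 27.4%, 20.0% and 31.8%, and in interiors to 66.4%, 53.6%, 60.2% and 66.2%. The value 300 bp outside gene ends was 7.30%, 7.75%, 5.81% and 7.47%. The value 500 bp inside was 49.1% with equal numbers, 50.8% in the upper 50% and 55.6% for isolated summits. Summits within 50 bp came to 33.7%, 27.5%, 28.3% and 31.6%. In each alternative interiors stayed above gene ends at the summit.

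Genes with H3K27ac only (290) numbered 667 with equal numbers, 496 in the upper 50% and 1225 in gene-end windows, and those with H3K4me1 only (1811) 1154 with equal numbers. The difference in sharing between the highest and lowest fold groups, an alternative chosen after seeing the data, was -18.6, -15.4 and -13.4 points at gene ends (-28.7), 23.6 with equal numbers and 1.84 in the upper 50% in interiors (7.65), and 20.8 at the stricter q and 29.8 with equal numbers outside genes (12.3). For the gene lists 228 values stayed within these limits and 60 did not.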

Other observations

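The day 50 lists, made from other libraries, had the same arrangement, and with 1 list per age no test of age was possible. At day 50, 68.4% of 25432 H3K27ac peaks overlapped H3K4me1 (interval 67.8 to 68.9%) and 40.1% of H3K4me1 peaks overlapped H3K27ac. At gene ends H3K4me1 covered 9.90% of positions 300 bp outside and 50.3% of those 500 bp inside, and 36.1% of H3K27ac summits had an H3K4me1 summit within 50 bp. Of the genes with both marks at day 10, 8143 of 8394 (97.0%) had both at day 50, as had 3058 of 3451 (88.6%) no peak at both ages. The genes with H3K27ac alone were found in the same class least often, 141 of 290 (48.6%), against 1163 of 1811 (64.2%) for H3K4me1 alone.

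Peak by peak, 70.8% of the coincident H3K27ac peaks of day 10 overlapped peaks of both marks at day 50, as did 71.5% of those with overlapping peaks but summits apart. Counting the day 50 H3K27ac list only, 78.9% of the coincident peaks and 81.6% of those with summits apart were found again. H3K27ac peaks without H3K4me1 at day 10 were found again in that list in 66.9% of cases, and 13.3% overlapped an H3K4me1 peak of day 50. Seen from H3K4me1, H3K27ac covered 36.9% of summits in gene interiors, 28.4% at gene ends and 26.0% outside genes, against backgrounds of 14.0%, 11.8% and 7.99%. The widest site with both marks, 5149 bp in 1 H3K27ac and 4 H3K4me1 peaks, lay over Pgk and Bacc (chr2L:2749239-2754387); others of more than 4000 bp lay over EcR, Ranbp21 and ps.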
